A study of Drosophila melanogaster with 3 samples.

Results

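In *Drosophila melanogaster*, 10 genes of insulator and architectural proteins were examined for regions enriched in chromatin immunoprecipitation with sequencing (ChIP-seq) of the HMG-box protein CG12104. The genes were BEAF-32, CTCF, Chro, Cp190, Dref, su(Hw), mod(mdg4), M1BP, pita and ZIPIC. They were taken by symbol from the Ensembl BDGP6 annotation, where all 10 were found among 13945 protein-coding genes on chromosomes with peaks. The 3 samples were biological replicates of 1 group: whole embryos of both sexes, 0 to 24 h old, of the transgenic strain CG12104-GFP, which carries an insertion that makes CG12104 with GFP at its C-terminus. An anti-GFP antibody was used on chromatin that had been sonicated into fragments of 200 to 800 bp. Every sample carried the fusion, and no untagged embryos or control alignments were analysed here. Enrichment through the fusion protein and unspecific enrichment therefore cannot be told apart. What drives the fusion is not stated by the labels, and a whole embryo does not show which cells gave a signal. The files hold lists of regions in dm6: the 4060 peaks that passed the irreproducible discovery rate (IDR), 26959 candidates from the pooled replicates, and 30000 candidates for each replicate. The IDR peaks are the 4060 candidates of the pooled list with the highest signal. Signal is the authors' peak caller's value on the scale of its own list, so replicates are compared by rank, where 1 is the highest. The lists carry no read counts, and depth is unknown.

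Insulator proteins partition chromatin. DNA-binding members such as BEAF-32, Su(Hw), CTCF, Pita and ZIPIC recognise short sequences at domain borders and promoters, and they recruit cofactors, above all CP190. CP190 and Mod(mdg4) carry BTB domains through which such complexes assemble, and Chromator is a chromodomain protein of polytene interbands that is found with BEAF-32. Dref binds the DNA replication-related element (DRE), and M1BP binds the promoter element known as motif 1. Both elements are common at housekeeping promoters, many of which lie head to head with a neighbour.

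The sequence around promoter peaks of these genes shows what lay under the signal. A gene was called bound when an IDR summit fell within 500 bp of a transcription start site (TSS) of one of its protein-coding transcripts. The windows of 201 bp below are centred on the highest such summit of the 5 bound genes with a printed sequence, on the plus strand of dm6 from the RefSeq Release 6 assembly, in order of pooled signal. They lie at chr3L:22878787-22878987 (Chro), chr3R:15275226-15275426 (Cp190), chr3R:8731783-8731983 (M1BP), chr2L:9967160-9967360 (Dref) and chr3R:14308880-14309080 (su(Hw)). Capitals mark matches on either strand to any of 7 words that were searched. These were TATCGATA (the DRE), CGATA (the BEAF-32 core, which the DRE contains), GGTCACAC (M1BP), GGTGGCGC (CTCF), TGCATA (part of the Su(Hw) site), GAGAG (GAGA factor) and CAGGTG (an E-box).
Chro: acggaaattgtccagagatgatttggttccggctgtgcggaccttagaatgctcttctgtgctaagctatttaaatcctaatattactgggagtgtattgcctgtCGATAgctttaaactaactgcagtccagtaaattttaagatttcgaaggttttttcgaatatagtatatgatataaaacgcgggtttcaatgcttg
Cp190: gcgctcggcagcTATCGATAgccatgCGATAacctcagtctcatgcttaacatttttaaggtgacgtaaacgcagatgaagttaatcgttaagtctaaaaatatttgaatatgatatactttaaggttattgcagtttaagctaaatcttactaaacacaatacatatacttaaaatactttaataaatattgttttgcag
M1BP: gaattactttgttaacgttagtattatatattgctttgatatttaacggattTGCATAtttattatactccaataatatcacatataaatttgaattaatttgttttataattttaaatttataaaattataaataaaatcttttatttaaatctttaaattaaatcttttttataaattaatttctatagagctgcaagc
Dref: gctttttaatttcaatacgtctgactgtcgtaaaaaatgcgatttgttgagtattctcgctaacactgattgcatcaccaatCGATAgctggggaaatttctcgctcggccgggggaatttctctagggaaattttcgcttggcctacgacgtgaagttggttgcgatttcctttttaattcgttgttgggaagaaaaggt
su(Hw): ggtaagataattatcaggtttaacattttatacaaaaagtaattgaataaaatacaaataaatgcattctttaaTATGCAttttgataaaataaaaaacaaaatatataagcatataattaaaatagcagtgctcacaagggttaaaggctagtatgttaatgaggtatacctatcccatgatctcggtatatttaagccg

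Some of the 7 words occurred in these windows, and others in none. Cp190 alone among the 6 bound genes had a DRE, centred 85 bp left of its summit, and its window held CGATA at 3 places, 2 of them inside the DRE. Of all promoter IDR windows 6.62% held a DRE, and of windows centred on the most upstream TSS of every protein-coding gene 7.84% did. CGATA was also found 7 bp right of the *Chro* summit and 16 bp left of the *Dref* summit. In all, 3 of 6 bound genes had CGATA, against 34.5% of promoter IDR windows and 39.4% of TSS windows. TGCATA occurred in the windows of su(Hw), 24 bp left of the summit, and M1BP, 46 bp left. It was present in 14.5% of promoter IDR windows and 7.68% of TSS windows. GGTCACAC was in none of the 6 windows (3.73% of promoter IDR windows, 6.76% of TSS windows). The same held for GGTGGCGC (0.784% and 0.416%), GAGAG (19.1% and 22.5%) and CAGGTG (4.90% and 6.57%). Among the 5 printed windows, that of *M1BP* was the poorest in G and C, at 15.9%, and that of *Dref* the richest, at 42.3%. The median of promoter IDR windows was 33.3%.

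Of the 10 genes, 6 were bound: Chro, Cp190, M1BP, Dref, BEAF-32 and su(Hw). Across all protein-coding genes 18.7% were bound. CTCF, mod(mdg4), pita and ZIPIC were not. When each replicate's 4060 highest regions were used in place of the IDR set, 8 genes had a region within 500 bp in replicate 1, 5 in replicate 2 and 7 in replicate 3. The mean was 6.67 ± 1.53 genes (SD, n = 3). All protein-coding genes gave 20.2%, 17.0% and 16.9% in replicates 1, 2 and 3. Chro, Cp190, M1BP, Dref and BEAF-32 were in the count of all 3 replicates, and su(Hw) was missing from replicate 2. The extra genes were mod(mdg4) and pita in replicate 1 and CTCF in replicate 3. The full pooled list is permissive, with a highest q of 0.96. It put a region within 500 bp of a TSS of 9 genes, all but ZIPIC, and of 46.2% of all genes. These 10 genes were picked with earlier results of these data known, so the counts are a description and were not tested.

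**Figure D1:**
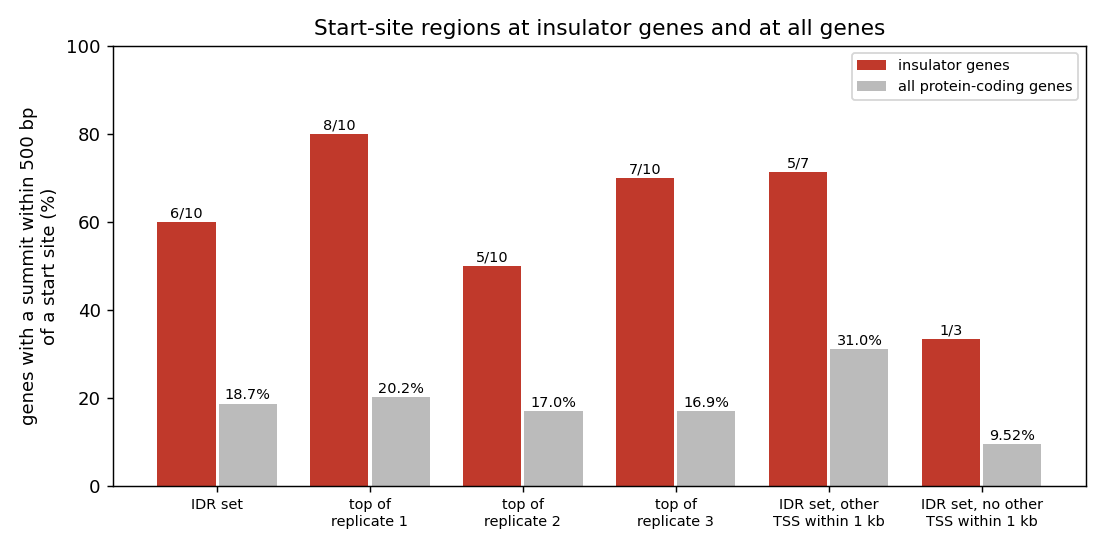
The bars show the percentage of genes with a summit within 500 bp of a start site, for the 10 insulator genes (red) and for all protein-coding genes (grey), by list and by whether another start site lies within 1 kb. In the IDR set 6 of 10 insulator genes stand beside 18.7% of all genes, and the replicates vary between 5 and 8 of 10.

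The promoters of these genes were often shared. Of the 10 genes, 7 had the TSS of another protein-coding gene within 1 kb of their own, against 42.9% of all genes, and 5 were divergent pairs, against 36.5%. Binding went with this arrangement across the genome: 31.0% of genes with another TSS within 1 kb were bound, and 9.52% of genes without one. The rule itself adds to the first share, because a peak within 500 bp of the start sites of both neighbours calls both genes bound. With each peak given only to the nearest TSS, 13.6% of all genes were bound in place of 18.7%, and the split by neighbour was not made under that rule. Of the 7 insulator genes with such a neighbour 5 were bound, and of the 3 without one only BEAF-32 was. Each of those 5 was divergent from its neighbour, so a peak there cannot be given to one gene of the pair.

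Of the cofactor genes, Chro and Cp190 held the highest signals of the group, and mod(mdg4) was not bound. Chro (FBgn0044324, 3L 22873702 to 22878984, minus strand) had the strongest peak of the group, at 3L 22878714 to 22879072, of pooled signal 1320 at rank 11. Its signal was 371 in replicate 1 (rank 24), 636 in replicate 2 (rank 8) and 297 in replicate 3 (rank 10). The 3 summits lay within 15 bp of each other. This peak was 7.37 times the median of promoter IDR peaks, and 0.245% of those were higher. The pooled summit fell 97 bp inside *Chro*, in its 5' UTR, whereas the other bound genes had their highest summit upstream of their nearest TSS. *Chro* has 3 annotated start sites, and the 97 bp are counted from the most upstream one. The summit lay upstream of the others. *Ssl1*, which encodes a subunit of the general transcription factor TFIIH, starts 105 bp away on the opposite strand, and the summit lay 202 bp upstream of its TSS.

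Cp190 (FBgn0000283, 3R 15270432 to 15275241, minus strand) had 2 IDR regions at its start, which overlapped by 86 bp. The higher lay at 3R 15275242 to 15275391, signal 703 and rank 86, with its summit 85 bp upstream of the *Cp190* TSS. The lower, signal 359 and rank 488, had its summit 9 bp inside the 5' UTR of the divergent neighbour CG4338, whose TSS is 281 bp from that of *Cp190*. The higher region had signals of 266, 296 and 139 in replicates 1, 2 and 3, at ranks 73, 93 and 99. These ranks differed little between replicates. Replicates 1 and 3 listed 2 separate regions, the lower one at ranks 816 and 837. Replicate 2 had a single region with its summit between those of the pooled pair, 157 bp upstream of *Cp190*.

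The third cofactor gene had no bound start of its own. In mod(mdg4) (FBgn0002781, 3R 21350846 to 21377401, minus strand) the region at the TSS ranked 6111 in the pooled list, with q = 0.104. It ranked 3892 in replicate 1 and 8865 in replicate 2. Replicate 3 had no region over the TSS, and its only region with a summit within 500 bp lay 382 bp inside the gene at rank 29441, near the end of the list. The gene makes many isoforms by trans-splicing, in which separate transcripts from the same locus supply the 3' exons. A strong IDR peak lay at the start sites of some of those transcripts, 11927 bp into the gene in an intron, at 3R 21365249 to 21365698. Its pooled signal was 441 (rank 293), and its ranks were 269, 388 and 250 in replicates 1, 2 and 3. The summit was 14 bp downstream of the TSS annotated as pre-mod(mdg4)-E and 135 bp upstream of the TSS shared by 7 pre-mod(mdg4) genes on the plus strand, among them pre-mod(mdg4)-X. This peak was singled out after its values were seen. With all pre-mod(mdg4) start sites counted as those of mod(mdg4), 7 of the 10 genes would be bound. Within 500 bp of the start sites of pre-mod(mdg4)-AA, pre-mod(mdg4)-N and pre-mod(mdg4)-O, elsewhere in the gene, only replicate 3 had a region (rank 11965, q = 0.236). The other IDR peak, signal 380 and rank 424, lay 1380 bp upstream of mod(mdg4) and 196 bp upstream of *tin*, which encodes a homeodomain factor of heart and muscle. Its ranks were 999, 398 and 210.

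**Figure D2:**
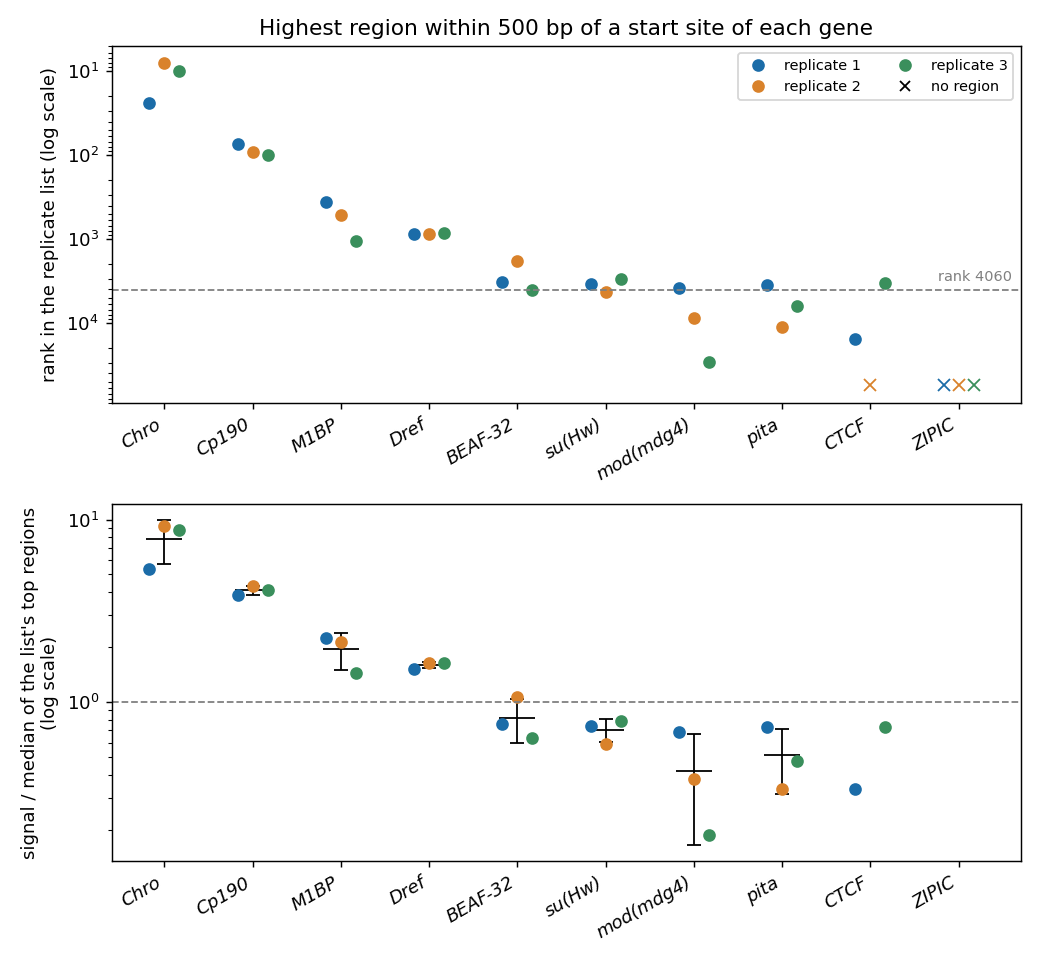
For each gene the upper panel gives the rank of the highest region within 500 bp of a start site in each replicate (log scale, high ranks at the top, crosses where there was none). The lower panel gives its signal divided by the median of that list's 4060 highest regions (log scale). Black bars are the mean ± SD of 3 replicates and are drawn only where all 3 had a region, so CTCF has none. In the upper panel Chro, Cp190, M1BP, Dref and BEAF-32 lie above the dashed line in all replicates, su(Hw) in 2, and mod(mdg4), pita and CTCF cross it in 1.

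Among the DNA-binding proteins, the genes of the 2 promoter factors had the firmest peaks. M1BP (FBgn0037621, 3R 8729790 to 8731698, minus strand) had an IDR peak at 3R 8731658 to 8732107 with signal 348 and rank 521. The summit lay between 2 start sites, 185 bp upstream of *M1BP* and 208 bp upstream of CG8202. Signals were 155, 148 and 48.7 in replicates 1, 2 and 3, at ranks 366, 516 and 1057. A weaker IDR region, signal 113 and rank 3681, overlapped it by 241 bp with its summit 1 bp from the CG8202 TSS. The region nearest to that weaker summit ranked 8746 in replicate 1 (q = 0.323) and 2075 in replicate 2. In replicate 3 a single region stood in the place of both, with its summit 336 bp upstream of *M1BP*.

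Dref (FBgn0015664, 2L 9964147 to 9967229, minus strand) shares its promoter with *RpL13*, a gene of the large ribosomal subunit whose TSS is 84 bp away. The IDR peak at 2L 9967035 to 9967484 had signal 260 and rank 900, with its summit between the start sites, 31 bp upstream of *Dref* and 53 bp upstream of *RpL13*. Signals of 105, 113 and 55.2 in replicates 1, 2 and 3 gave ranks of 869, 881 and 841. No other bound gene of the group had so narrow a range relative to its rank. A pair of stronger peaks lay beyond the 3' end, at the start sites of CG4658 and CG5846 (317, rank 620) and of CG4709 and CG13126 (406, rank 362).

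The insulator gene su(Hw) (FBgn0003567, 3R 14304455 to 14308589, minus strand) lay near the edge of the IDR set. Its peak, at 3R 14308755 to 14309204, had signal 116, rank 3544 and q = 0.00635. The signals were 51.1, 40.7 and 26.6 in replicates 1, 2 and 3, at ranks 3403, 4319 and 2972. Replicate 2 thus missed the 4060 highest regions. The summit was 391 bp upstream of su(Hw) but 109 bp upstream of *Polr2I*, a subunit gene of RNA polymerase II, and su(Hw) was not bound when each peak went only to the nearest TSS. Another IDR peak, signal 117 and rank 3489, lay in an intron of *red*, 8483 bp downstream of the su(Hw) TSS, with replicate ranks of 2145, 9695 and 4084. It was the only one of the 20 IDR regions around these genes that was not within 500 bp of a TSS.

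**Figure D3:**
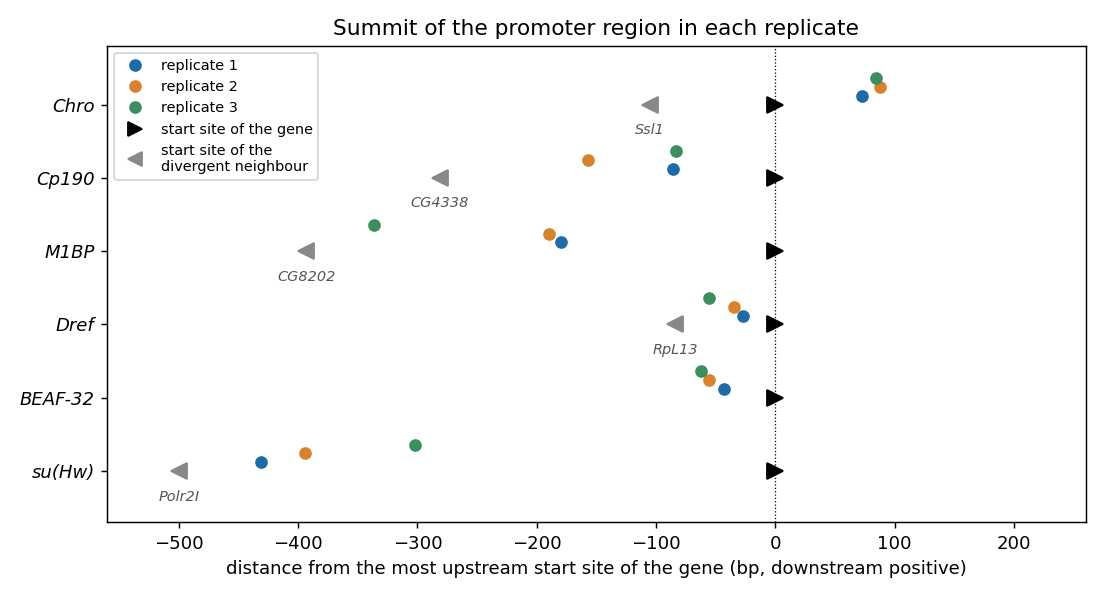
Each point is the summit of the highest promoter region in 1 replicate, as distance in bp from the most upstream start site of the gene (black arrowheads, downstream positive), and grey arrowheads mark the start site of the divergent neighbour. Summits at Cp190, M1BP, Dref and su(Hw) lie between the paired start sites, and those at Chro lie downstream of its most upstream start site. BEAF-32 has no neighbour within the window.

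BEAF-32 (FBgn0015602, 2R 14770469 to 14772630, plus strand) was the only bound gene with no other TSS within 1 kb. The nearest other TSS, of *Spred*, is 1046 bp away on the opposite strand, just beyond that limit. The IDR peak at 2R 14770181 to 14770630 had signal 150 and rank 2420, and 65.1% of promoter IDR peaks were higher. Replicates 1, 2 and 3 gave signals of 52.2, 74.0 and 21.5 at ranks 3287, 1809 and 4029. Replicate 2 was the highest by rank, and replicate 3 fell just inside the top 4060. The 3 summits nevertheless lay within 19 bp of each other, at 43, 56 and 62 bp upstream of the TSS.

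The remaining zinc finger genes had no IDR peak at their own start sites. In CTCF (FBgn0035769, 3L 7353578 to 7356713, minus strand) the best pooled region ranked 17490, with q = 0.793. Replicate 1 ranked 15602, replicate 2 had no region within 500 bp, and replicate 3 reached rank 3322 with a signal of 24.6 and q = 0.000452. The replicate 3 summit was 35 bp inside the gene, and a signal at this promoter thus rested on 1 of 3 replicates. At pita (FBgn0034878, 2R 23548967 to 23554712, minus strand) the pooled rank was 7432 (q = 0.203). The highest regions within 500 bp in replicates 1, 2 and 3 ranked 3523, 11340 and 6327, with summits 117 bp inside the gene, 46 bp upstream of it and 233 bp inside it. ZIPIC (FBgn0039740, 3R 30035240 to 30036870, minus strand) had no region within 500 bp of its TSS in any of the 5 lists. The pooled region nearest to it lay 2123 bp upstream, at rank 13137.

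To order the genes on one scale, the signal of the highest region within 500 bp of a TSS was divided by the median signal of the 4060 highest regions of its replicate. The means were 7.81 ± 2.11 for Chro, 4.10 ± 0.216 for Cp190, 1.94 ± 0.439 for M1BP and 1.59 ± 0.0635 for Dref (SD, n = 3 unless stated). Below 1 came BEAF-32 at 0.822 ± 0.223, su(Hw) at 0.707 ± 0.103, CTCF at 0.531 ± 0.28 (n = 2), pita at 0.511 ± 0.199 and mod(mdg4) at 0.418 ± 0.252. The mean of CTCF leaves out replicate 2, where it had no region, and so places the gene too high. In the pooled list the same ratio was 0.26 for CTCF, 0.419 for pita and 0.478 for mod(mdg4), the reverse order. ZIPIC had no value. Chro lay above Cp190, and Cp190 above M1BP, in every replicate without overlap. The values of M1BP and Dref overlapped, as did those of neighbours in the order from BEAF-32 down to mod(mdg4). Dref and BEAF-32 did not overlap, which set the upper 4 genes apart from the rest. With 3 replicates of 1 group no test was made of this order.

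All 10 genes had at least 1 IDR region in the gene or within 10 kb, against 59.6% of protein-coding genes. The 20 regions gave a median of 2 per gene, and the median over all genes was 1. Cp190 and Dref had 3 each, as many as 16.9% of genes have or exceed, while BEAF-32 and CTCF had 1. Every one of the 20 was overlapped by a region in all 3 replicates, and 15 by one of the top 4060 in all 3. The same counts were not made over all IDR peaks. The IDR set was itself selected from these lists, so the counts do not set these genes apart. The weaker region at *M1BP* is among the 15 through the stronger region beside it, since the nearest region in replicate 1 ranked 8746. Of the 20, 19 lay within 500 bp of some gene's TSS (95%), against 50.2% of all IDR peaks and 51.4% of those in or within 10 kb of a protein-coding gene. The regions fall at few promoters, and those at *Cp190* and at *M1BP* overlap, so they are not independent. Of these 19, 13 had start sites of 2 or more genes within 500 bp (68.4%), against 43.3% of promoter IDR peaks. The 13 include both overlapping pairs. They also include the intronic peak of mod(mdg4), which counts only through pre-mod(mdg4) transcripts that are annotated as separate genes.

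The IDR regions near CTCF, ZIPIC and pita lay at the start sites of neighbours. The region near CTCF, signal 146, lay 8553 bp downstream of its TSS between *Srp19*, a signal recognition particle gene, and *qm*. Its ranks were 1331, 5794 and 4626 in replicates 1, 2 and 3, so only replicate 1 placed it among the highest 4060. Near ZIPIC the stronger region, signal 415 and rank 344, was 9458 bp upstream, at the start sites of CG7943 and of the ribosomal protein gene *RpL32*, with ranks of 321, 458 and 254. The other, signal 177, was 25 bp upstream of *Sry-delta*, a zinc finger gene. Those near pita were at *levy* and *wmd* (signal 146, ranks 1337, 4390 and 3164) and at *apt* (signal 155, ranks 2347, 1682 and 7997). The first missed the highest 4060 in replicate 2 and the second in replicate 3.

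**Figure D4:**
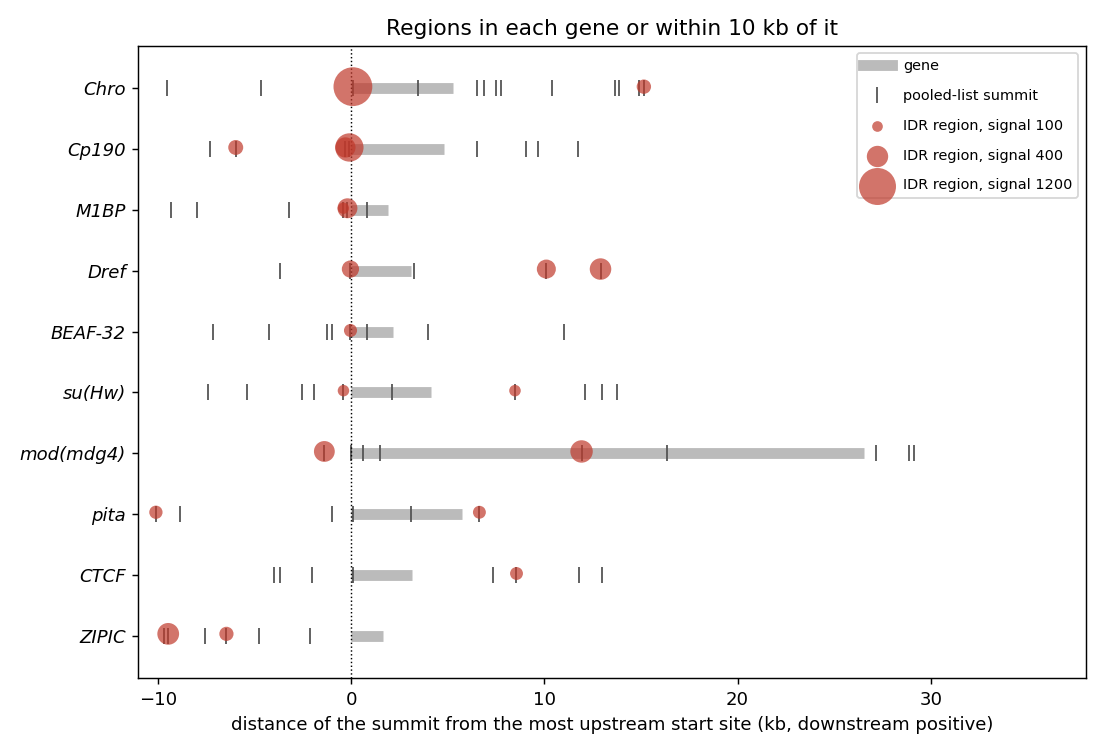
Rows are the 10 genes (grey bars), with summits of the pooled list as ticks and IDR regions as red circles whose area follows the pooled signal, at their distance in kb from the most upstream start site (downstream positive). Chro, Cp190, M1BP, Dref, BEAF-32 and su(Hw) have a circle at 0, whereas the circles of mod(mdg4), pita, CTCF and ZIPIC lie away from it.

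Other genes of insulator function were counted for comparison, from a list of 30 symbols of which 29 were found. Of these, 10 were bound (34.5%, against 18.7% of all genes). All 10 had another TSS within 1 kb, as did 1855 of the 2613 bound genes among all protein-coding genes. Bound or not, 19 of the 29 had one, against 42.9% of all genes. The subgroups were uneven, and so was the share with a neighbouring TSS. Another TSS lay within 1 kb for 5 of 9 DNA-binding, 6 of 7 cofactor and 8 of 13 cohesin and condensin genes. Among 9 other DNA-binding insulator genes, such as the boundary factors *Elba1*, *Elba2*, *Elba3*, *Ibf1* and *Ibf2*, only *Trl* was bound (signal 285), which encodes the GAGA factor. Of 7 cofactor genes 5 were bound: *pzg*, which encodes the Chromator partner Z4 (274), *Nup98-96* (201), *lolal* (152), *fs(1)h* (121) and *e(y)2* (120). Of 13 cohesin and condensin genes 4 were, namely the cohesin regulator *pds5* (706, rank 84), *SMC2* (223), *Cap-H2* (138) and *Mau2* (112). Whether the shares of these subgroups differ was not tested.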

How the data were processed

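ChIP-seq regions of 3 replicates (1 group, replicate numbers from the labels) were analysed in dm6. Per the deposited text lists, the authors called regions on each replicate against 1 control alignment and on the pooled replicates, and selected the IDR set from these lists. Neither aligner nor peak caller is named in the labels or lists. The authors deposited a signal value for every region, on a scale that differs between lists. The -log10 q value that the authors deposited beside it is printed here as q. The replicate lists in dm6 are equal in length, so low ranks may be cut short. Lists in dm3 were not used.

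Genes and start sites came from Ensembl release 115 (BDGP6), sequence from the RefSeq Release 6 assembly. All dm6 region ends lay within its chromosomes, and no region had identical coordinates in 2 replicates. Coordinates are 1-based. Distances are from summit to the nearest TSS of the gene's protein-coding transcripts, negative upstream. A region was kept when it overlapped the gene or its 10 kb flanks. Promoter meant within 500 bp of any protein-coding TSS. Fragments of 200 to 800 bp limit how well a summit is placed.

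Members and lists were chosen with earlier results of these data known. Named besides the 10 genes are those that share their promoter peaks, those at the strongest IDR region within 10 kb, and up to 4 per subgroup of other insulator genes by signal. The genes *e(y)2*, *Elba1*, *Elba2*, *Elba3*, *Ibf1*, *Ibf2* and *red*, the mod(mdg4) intronic peak and neighbours with weaker regions were added after their values were seen. Counts, ranks and positions were described and not tested. The procedure that assigns summits to start sites was checked on planted summits, which is no test of the counts. Python 3.11.15, numpy 2.4.6, pandas 2.3.3 and matplotlib 3.10.9 were used. Other windows, thresholds, gene assignments, overlaps and replicate subsets were tried.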

Additional observations from a re-analysis of the deposited data

How the results depend on the processing

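The count of 6 bound genes lay between 4 and 9 under 7 other settings. It was 5 with a 200 bp window (12.2% of all genes) and 6 with 1000 bp (21.3%) or with most upstream start sites alone (16.7%). It was 9 with the pooled list (46.2%). It was 4 with the upper 2030 peaks (11.1%), 5 with nearest-TSS assignment (13.6%), and 7 when pre-mod(mdg4) start sites counted as those of mod(mdg4), a setting chosen after seeing the data. The 20 IDR regions within 10 kb became 12 within 5 kb, 32 within 20 kb and 5 in the gene bodies alone. The mean of 6.67 genes in the replicates' top regions became 4.33 with 2030 regions per replicate and lay between 6 and 7.5 with 1 replicate left out. The peaks of 5 genes overlapped a top region in every replicate, a count that was not made over all bound genes. Without replicate 1 or 3 this count was again 5, and without replicate 2 it was 6, with su(Hw) added. No paired analysis was possible because there is only 1 group. Depth is unknown, so the weakest ranks cannot be given an interval.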

Other observations

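The BEAF-32 gene has 3 annotated start sites, and the most downstream one had a candidate region too, below the IDR threshold. In the pooled list it ranked 4796 (signal 94.4, q = 0.0345), with its summit 10 bp inside that start site. Its ranks were 4595, 6124 and 5225 in replicates 1, 2 and 3.

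Of 79 regions of the pooled list in or within 10 kb of the 10 genes, 48 lay within 500 bp of a TSS (60.8%), against 26.4% of all 26959 pooled regions. In replicates 1, 2 and 3 the shares were 49.5%, 52% and 54.1%, against 26.5%, 22.0% and 25.6% of all regions. Of the 79, 9 had the summit in a coding exon outside such windows (11.4%), against 6.41% of all pooled regions, and of the 20 IDR regions 0 did, against 0.197% of all IDR peaks. In the replicates 23 of 107 regions in replicate 1 (21.5%), 8 of 75 in replicate 2 (10.7%) and 10 of 98 in replicate 3 (10.2%) had the summit there, against 9.24%, 7.34% and 6.69% of all regions. None of these differences was tested. The all-region shares include regions far from any protein-coding gene, and the IDR regions are part of the pooled list.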
